A study of Drosophila melanogaster with 23 samples.

Results

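Chromosome folding in S2 cells was set against that in stage 5 embryos of *Drosophila melanogaster*, with the control map of each source only. S2 is a cultured line derived from embryos, with properties of macrophage-like blood cells. Both maps come from Hi-C, which counts how often pairs of DNA segments were close enough in the nucleus to be joined by ligation after digestion, here with DpnII. The S2 control map pooled 2 libraries and the embryo control map pooled 7, so 9 of the 23 libraries of the series entered the comparison. The S2 cells, labelled WT, had been incubated for 4 days with double-stranded RNA against GST as an RNA interference control, and their nuclei were released by sonication. The embryos came from the control stock (Bloomington #36303), were collected for 1 h at 25 °C, aged for another 2 h, fixed in formaldehyde, sorted by hand at zygotic genome activation (ZGA) and crushed with a pestle. Cell source and nuclear preparation therefore differed together and cannot be told apart. An embryo pool holds the nuclei of whole embryos, whereas S2 is a long-cultured line. No RNA was measured here, so the defining markers of either source could not be examined.

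At stage 5 the nuclei of the fly embryo leave a run of fast divisions and start zygotic transcription, and their chromosomes lie in a Rabl configuration, with centromeres at one pole and telomeres at the other. Chromosomes also fold into domains separated by boundaries, and distant active segments (A-compartment) contact each other more than they contact inactive ones (B-compartment). Pericentromeric heterochromatin, which is rich in repeats and bound by heterochromatin protein 1 (HP1), gathers into a chromocentre.

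The authors deposited 1 map for each source, so differences have no replicate error and no test was possible. Values of both maps are given with their range over the arms 2L, 2R, 3L, 3R and X, which are not replicates. They are also set beside the range over all 3 S2 maps (control and 2 treated with dsRNA against HP1) and over all 4 embryo maps (control, HP1 knockdown, HP1 rescue and H3K9M), which hold other treatments as well. The S2 control map held 35298710 whole contacts and the embryo control map 304117936. The map of S2 cells was the shallower, and decay, compartments, boundaries, arm alignment, contact between pericentromeres, gene lists and junctions were also computed with the embryo map thinned to 35305047 contacts. The thinned map kept the correction factors of the full map, so it does not cover what low depth does to the correction. Other results, among them copy ratios and almost empty bins, were computed at full depth only. Of 13256 bins of 10 kb on the arms, 13145 were used, of which 1538 were pericentromeric and 11607 lay on the arms. The maps were corrected iteratively, a step that gives every bin the same total.

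More of the contact in S2 cells was very local. Within a single 10-kb bin lay 29.6% of the corrected contact of the arms in S2 cells and 20.8% in embryos. This share ran from 29.6 to 32.5% over all S2 maps and from 17.8 to 27.0% over all embryo maps, the highest being HP1 rescue. Contact within an arm but beyond the bin made up 63.3% in S2 cells and 70.7% in embryos. The arms of a chromosome shared 1.90% in S2 cells and 2.78% in embryos, and different chromosomes shared 5.21% in S2 cells and 5.77% in embryos. As whole contacts without correction, the share within a bin was 34.9% (95% Wilson interval 34.86 to 34.89, counting error only) in S2 cells and 24.7% (24.74 to 24.75) in embryos. The share between chromosomes changed its order when contacts under 20 kb were left out, being 10.6% in S2 cells and 9.68% in embryos, so its direction rested on the short contacts. Over all maps of each source it lay between 5.21 and 5.24% in S2 cells and between 4.73 and 5.77% in embryos, ranges that overlap.

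With distance, contact within arms fell along different curves. Between 20 and 100 kb the decay exponent, the slope of log10 contact on log10 distance, was -1.25 in S2 cells and -1.28 in embryos, and the ranges over all maps of each source overlapped. Between 100 kb and 1 Mb it was -1.61 in S2 cells (arms -1.66 to -1.52) and -1.50 in embryos (-1.53 to -1.47). Between 1 and 10 Mb it was -0.83 in S2 cells (-0.87 to -0.79) and -1.12 in embryos (-1.17 to -1.10). Fitted over each range with all arms pooled, S2 cells thus had the steeper decay between 100 kb and 1 Mb. They had the shallower decay between 1 and 10 Mb. On the X the exponent between 100 kb and 1 Mb was -1.52 in S2 cells and -1.53 in embryos. The order also changed inside both ranges. The slope at 0.115 Mb was -1.44 in S2 cells and -1.65 in embryos, and at 1.13 Mb it was -1.02 in S2 cells and -0.77 in embryos. Between 100 kb and 1 Mb all S2 maps lay between -1.64 and -1.61 and all embryo maps between -1.50 and -1.02. Between 1 and 10 Mb the S2 maps lay between -0.83 and -0.81 and the embryo maps between -1.51 and -1.12.

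The ratio of both maps showed where they crossed. At 30 kb the mean contact per pair of bins was 139 in S2 cells and 184 in embryos, a log2 ratio of S2 over embryo of -0.40. At 0.224 Mb it was 8.96 in S2 cells and 9.05 in embryos, a log2 ratio of -0.01. The curves almost met there. At 2.25 Mb it was 0.442 in S2 cells and 0.666 in embryos, a log2 ratio of -0.59 (arms -0.82 to -0.31). At 7.12 Mb the log2 ratio was 0.09, and the arms lay on both sides of 0, between -0.04 and 0.31. At 17.6 Mb it was 1.72 (arms 1.44 to 2.08), with a mean contact of 0.0744 in S2 cells and 0.0226 in embryos. With all arms pooled, S2 cells had less contact than embryos in each distance class up to 5.65 Mb and more contact in each class from 7.12 Mb on. Where the curves crossed depended on the scaling. The maps share 1 total over all contacts, and with each map scaled to its contacts from 20 kb to 10 Mb every log2 ratio was higher by 0.29, so that 10 of the 29 classes changed sign. S2 cells then had more contact between 0.0896 and 0.569 Mb (up to 0.27 at 0.224 Mb) and from 5.65 Mb on (0.13 there), and less in the other 14 classes (-0.31 at 2.25 Mb). The local slope was steepest at 0.284 Mb in S2 cells (-1.76) and at 8.95 Mb in embryos (-2.24), among classes under 10 Mb.

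**Figure D1:**
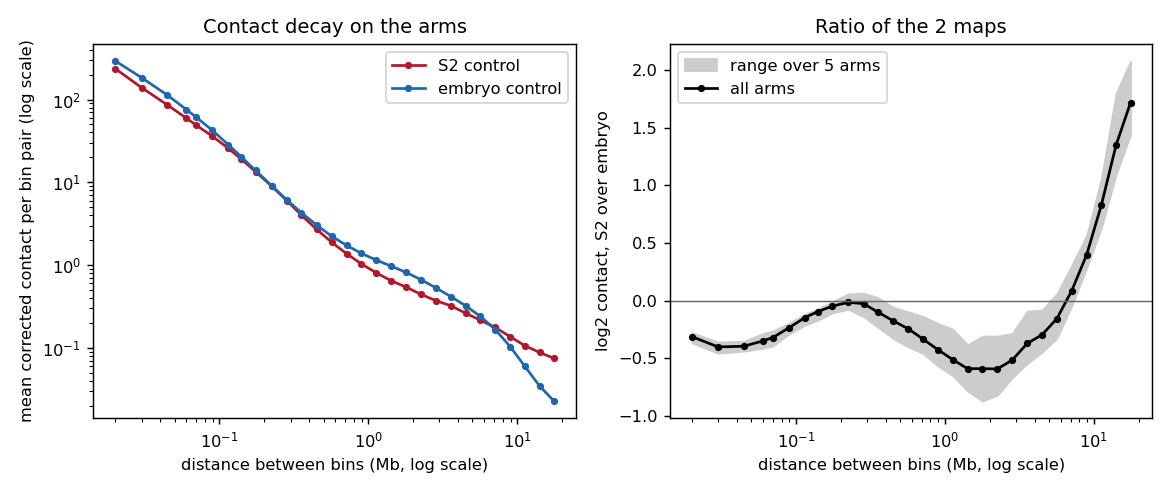
Left, mean corrected contact per pair of 10-kb bins against the distance between them (both axes on a log scale) for S2 control and embryo control. Right, log2 of S2 over embryo, with the grey band as the range over the 5 arms: it is -0.59 at 2.25 Mb, lies above 0 from 7.12 Mb on and reaches 1.72 at 17.6 Mb, and scaling each map to 20 kb to 10 Mb raises the whole curve by 0.29.

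Arms were hardly aligned with each other in S2 cells and were aligned in embryos. Arm alignment compares bins of different arms that lie at nearly the same distance from their pericentromeric borders (within 1 Mb) with bins at distances 5 Mb or more apart, as a ratio of mean contacts, so that a value of 1 means no alignment. It was 1.11 in S2 cells and 2.58 in embryos. All S2 maps lay between 1.10 and 1.11 and all embryo maps between 2.16 and 2.58. Among the 10 pairs of arms it ran between 0.926 and 1.29 in S2 cells and between 1.09 and 3.43 in embryos. The 2 arms of chromosome 2 had 1.23 in S2 cells and 3.43 in embryos, and the 2 arms of chromosome 3 had 1.29 in S2 cells and 3.23 in embryos. The pair 3R and X was low in both sources, with 1.01 in S2 cells and 1.09 in embryos. The pair 2R and 3R was under 1 in S2 cells, at 0.926, and stood at 2.53 in embryos.

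Contact between arms, over its own mean, hardly depended on the difference in distance from the border in S2 cells. It was 1.08 at differences under 1 Mb and 0.979 at 19 to 20 Mb in S2 cells, whereas it was 1.77 and 0.246 at the same differences in embryos. The arm ends still met in both sources. The distal 1 Mb of autosomal arms had 3.44 times the mean contact of their pairs in S2 cells and 6.86 times in embryos. The ranges were 3.38 to 3.73 over all S2 maps and 6.35 to 6.86 over all embryo maps. The S2 value was uneven over pairs of autosomal arms. It was 9.34 for 2L and 3L, 4.36 for 2R and 3R, and 1.62 to 2.27 for the others. In embryos these pairs ran from 5.22 to 8.78. Relative to the mean of its pair, the contact of the ends of 2R and 3L was 1.62 in S2 cells and 7.32 in embryos, and that of the ends of 3R and X was 1.94 in S2 cells and 11.3 in embryos. The ends of 2L and 3L were an exception to this order, with 9.34 in S2 cells and 8.78 in embryos. The ends of 2R and X were close to it, with 9.68 in S2 cells and 11.8 in embryos.

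**Figure D2:**
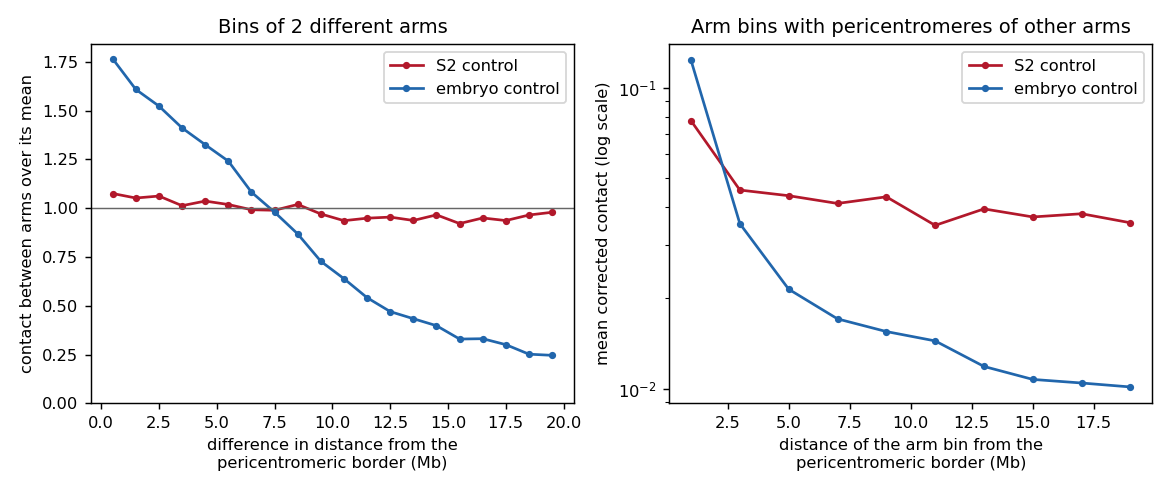
Left, contact between bins of different arms over its mean, against the difference in their distances from the pericentromeric border (Mb): S2 control stays between 0.921 and 1.08 and embryo control drops to 0.246. Right, mean corrected contact (log scale) of arm bins with the pericentromeric bins of other arms, against distance from the border (Mb): S2 control lies below embryo control within 2 Mb and above it further out.

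Pericentromeres met less in S2 cells. The mean corrected contact per pair of pericentromeric bins of different arms was 0.211 in S2 cells and 0.483 in embryos, a log2 ratio of -1.20. It rested on 118678 whole contacts in S2 cells and 1362887 in embryos. All S2 maps lay between 0.199 and 0.211 and all embryo maps between 0.374 and 0.483. The pericentromeres of 2L and 3R had 0.162 in S2 cells and 0.495 in embryos, the lowest of the 10 log2 ratios at -1.61. Those of 2L and 2R, across the centromere of chromosome 2, had 0.483 in S2 cells and 1.17 in embryos. The 4 pairs with the X differed less, with log2 ratios from -0.46 to -0.05, and rested on 597 to 1347 whole contacts in S2 cells. The difference also depended on the correction. Without iterative correction the log2 ratio was -0.41, and pericentromeric bins held more whole contacts in S2 cells than in embryos, as described with the copy ratio.

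**Figure D3:**
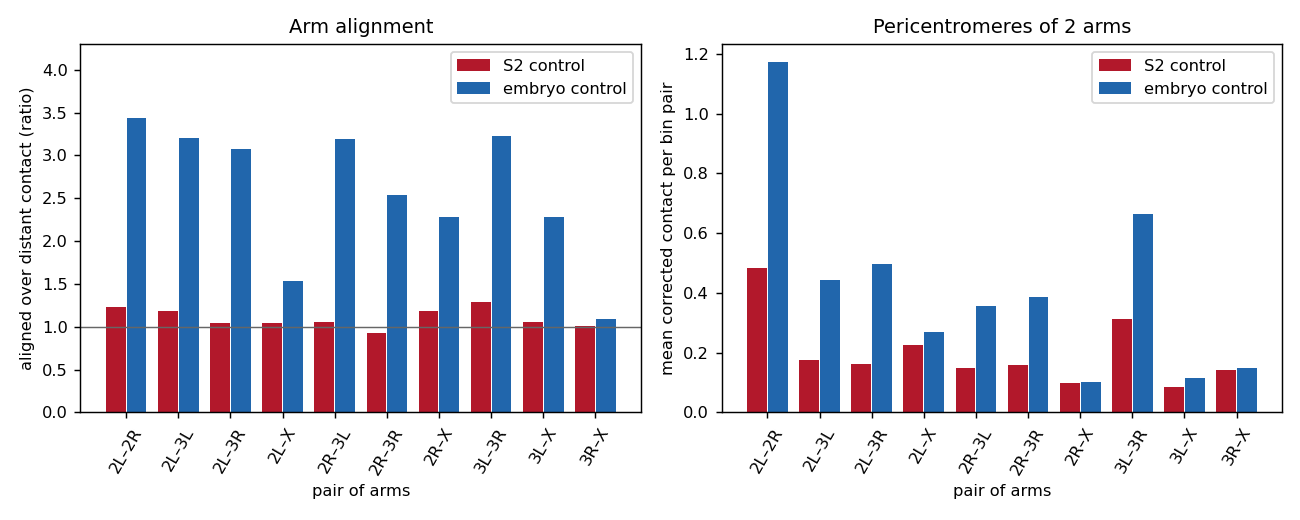
Values of the 10 pairs of arms in S2 control (left bar of a pair) and embryo control (right bar). Left, arm alignment, where the line at 1 marks no alignment: S2 control runs from 0.926 to 1.29 and embryo control from 1.09 to 3.43. Right, mean corrected contact between the pericentromeres of both arms, lower in S2 control in each pair.

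Pericentromeres in S2 cells contacted other arms more, with the second arm of the same chromosome counted among them. Their mean contact with arm bins was 0.0437 in S2 cells and 0.0249 in embryos, a log2 ratio of 0.81, with 0.60 for 2L, 1.13 for 2R, 0.64 for 3L, 0.80 for 3R and 0.13 for X. The sign depended on the position along the arm. Within 2 Mb of the border the contact was 0.0777 in S2 cells and 0.123 in embryos, and at 18 to 20 Mb it was 0.0356 in S2 cells and 0.0101 in embryos. In S2 cells the contact beyond 2 Mb stayed between 0.0349 and 0.0457.

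Compartments were taken from the first eigenvector of each arm at 40 kb, with the sign set by gene density and the values scaled to an SD of 1, so that A is above 0. Of 2907 bins, 900 (31%) had opposite signs in S2 cells and embryos, with 22.1 to 40.0% per arm. A stricter call, opposite signs with an absolute value of 0.5 or more in both maps, took 256 bins (8.81%). There were 545 bins that were A in S2 cells and B in embryos, and 355 the other way. The bins that were A in both maps numbered 1459 and those that were B in both 548. Gene content differed between these classes. The difference partly follows from the method, since gene density set the sign of each eigenvector and the S2 eigenvector followed it more closely. Bins that were A in S2 cells alone held 5.14 gene starts on average, close to the 5.96 of bins that were A in both, and bins that were A in embryos alone held 2.52, close to the 2.33 of bins that were B in both.

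The embryo eigenvector followed the position along the arm as well as the compartments. Its correlation with the distance from the centre of the arm, over the 512 to 697 bins of an arm, was -0.74 on 2R, -0.64 on X and 0.54 on 2L, and on 2R 91.4% of bins were A. Over the same arms the S2 eigenvector had -0.33 on 2R, -0.27 on X and -0.03 on 2L. Correlation with gene density was 0.51 to 0.59 over the arms in S2 cells and 0.25 to 0.32 in embryos. Neighbouring bins of 1 map are not independent, so these correlations are descriptions. For this reason a position-corrected eigenvector, with a smooth trend along the arm removed (Gaussian, SD 1 Mb), was computed after the first values had been seen. With it 816 bins (28.1%) had opposite signs, 513 of them A in S2 cells and B in embryos and 303 the other way, and the correlation of both maps over all bins was 0.60 in place of 0.45. For the same vector the maps of 1 source correlated at 0.946 to 0.961 (3 pairs of S2 maps) and at 0.930 to 0.960 (6 pairs of embryo maps), and maps of different sources at 0.575 to 0.613 (12 pairs). At most 10.4% of bins were of opposite sign within a source, against 27.1 to 31.8% between sources.

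Compartments alternated more often along the S2 map, by a margin that narrowed at equal depth. The arms held 335 A runs and 334 B runs in S2 cells, against 156 and 155 in embryos. The longest A run was 1800 kb in S2 cells and 10240 kb in embryos. After position correction there were 373 A runs in S2 cells and 255 in embryos, and the longest were 1200 kb in S2 cells and 1600 kb in embryos. Thinning raised the A runs of the embryo map to 196 with the first eigenvector and to 297 after correction. At equal depth the medians of A runs were 120 kb in S2 cells and 120 kb in embryos with either vector.

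Contact within A was stronger in S2 cells and contact within B stronger in embryos. Strength was measured beyond 500 kb, as observed contact over that expected from distance, averaged among the 20% of bins with the highest values (A/A), among the 20% with the lowest (B/B) or between them (A/B). A/A was 1.60 in S2 cells (arms 1.44 to 2.02) and 1.15 in embryos (1.08 to 1.18). B/B was 1.18 in S2 cells (1.07 to 1.37) and 1.65 in embryos (1.03 to 2.01). These orders held for all maps of each source. A/A lay between 1.59 and 1.62 over the S2 maps and between 1.13 and 1.20 over the embryo maps. B/B lay between 1.18 and 1.19 over the S2 maps and between 1.37 and 1.85 over the embryo maps. A/B was 0.737 in S2 cells and 0.690 in embryos and did not separate the sources, since it was 0.731 in S2 cells and 0.736 in embryos after position correction. The choice of bins mattered for A/A. With each map's bins ranked by the eigenvector of the other map, A/A was 1.17 in S2 cells and 1.20 in embryos, and B/B was 1.06 in S2 cells and 1.26 in embryos. With the position-corrected vectors exchanged in the same way, A/A was 1.29 in S2 cells and 1.22 in embryos, and B/B was 1.10 in S2 cells and 1.23 in embryos.

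Regions that switched were short. Runs of 3 or more strict bins gave 14 regions that were A in S2 cells and B in embryos, 2000 kb in all with 231 protein-coding genes, and 3 regions of the other kind with 27 genes. Of the 14, 8 lay on 2L, 4 on 3L and 2 on 3R. A region at chr2L:7320001-7520000 around *chm*, which encodes a histone acetyltransferase, and *muc*, which encodes a subunit of pyruvate dehydrogenase, had a value of 1.82 in S2 cells and -0.84 in embryos. After position correction it was 1.44 in S2 cells and 0.32 in embryos, so that it was A in both. A region at chr2L:12960001-13120000 held *mTor*, the growth-regulating kinase, and *Vha68-1*, a subunit of the vacuolar proton pump, with 1.42 in S2 cells and -1.45 in embryos after correction. The region chr3L:7720001-7880000 held *Clk* and *Pdp1*, both transcription factors of the circadian clock, and *Hn*, which encodes phenylalanine hydroxylase, with 1.16 in S2 cells and -1.84 in embryos after correction. The region chr2L:13240001-13440000 around *CG16826*, *hbt* and *Nnp-1* was opposite in 3 of its 5 bins after correction. The longest region that was B in S2 cells and A in embryos, chrX:10920001-11080000 with *vex*, *C901* and *SmydA-4*, had -0.82 in S2 cells and -1.46 in embryos after correction and was thus B in both. The 2 other regions of this kind lay on 2R, around *CG11041* and around the odorant-binding protein genes *Obp57a* to *Obp57c*. Of all regions, 10 of the 14 and 1 of the 3 were opposite throughout after correction. With the thinned embryo map the same rule gave 10 and 4 regions, which overlapped 10 of the 14 and all 3.

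Across the 13674 protein-coding genes placed on the arms, compartment values were mostly higher in S2 cells. After position correction the median difference, S2 minus embryo, was 0.74, and 11013 genes were A in S2 cells and 9364 in embryos. A difference of 1 or more, in units of the SD of an arm, was seen for 4984 genes in the positive direction (36.4% of all) and for 343 in the negative direction (2.51%). With the first eigenvector these were 4948 (36.2%) and 1429 (10.5%). By that vector 11475 genes were A in S2 cells and 9579 in embryos. Genes A in embryos and B in S2 cells numbered 812 after correction (5.94%) and 902 with the first eigenvector (6.6%). Gene lists are read against these shares, which include a shift of the whole map. The values were scaled but not centred, and after correction all arm bins averaged 0.57 in S2 cells and 0.06 in embryos. Genes that lie in the same 40-kb bin have the same value, so the genes of a cluster are not separate observations.

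The Hox genes, which give body segments their identity and are kept silent by Polycomb proteins outside their domains, went against the direction of the genome. Of 8 Hox genes all were A in embryos and 4 were A in S2 cells, and 6 were lower by 1 or more with either eigenvector. Their median difference was -1.28, set against 0.74 for all genes. *Abd-B*, which specifies the posterior abdomen, had -0.64 in S2 cells and 1.42 in embryos. *pb* had -0.88 in S2 cells and 0.91 in embryos, and *Antp*, which specifies thoracic segments, had -0.63 in S2 cells and 0.82 in embryos. *Dfd*, a gene of the head segments, had -0.39 in S2 cells and 0.93 in embryos. *Ubx* and *abd-A* were A in both maps but low in S2 cells, at 0.09 and 0.07, against 1.33 and 1.25 in embryos. *Scr* had 0.43 in S2 cells and 0.85 in embryos, and *lab* was the only member without a lower value in S2 cells, with 0.28 in S2 cells and 0.14 in embryos. All 8 lie on 3R in 2 complexes.

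A list of developmental regulators known for Polycomb domains had differences in the same direction, with a size that depended on the vector. Of 26 genes 24 lay on the arms. After correction 13 were A in S2 cells and all 24 in embryos, 12 were lower by 1 or more, and the median difference was -0.99. With the first eigenvector 12 were A in S2 cells and 18 in embryos, 5 were lower and 3 higher by 1 or more, and the median difference was -0.49, or -0.05 in 80-kb bins. *lbl* and *lbe*, homeobox genes of muscle and heart precursors, had -0.74 and -0.45 in S2 cells, against 1.38 and 1.30 in embryos. *salm* and *salr*, zinc finger genes that act in wing patterning, had -0.52 and -0.65 in S2 cells, against 1.00 and 1.07 in embryos. With the first eigenvector *salm* and *salr* were B in both maps. *en*, which marks posterior compartments of segments, had 0.36 in S2 cells and 1.29 in embryos. *pnr*, a GATA factor, and *dac* had higher values in S2 cells, with 2.02 and 1.69, against 1.45 and 1.01 in embryos.

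**Figure D4:**
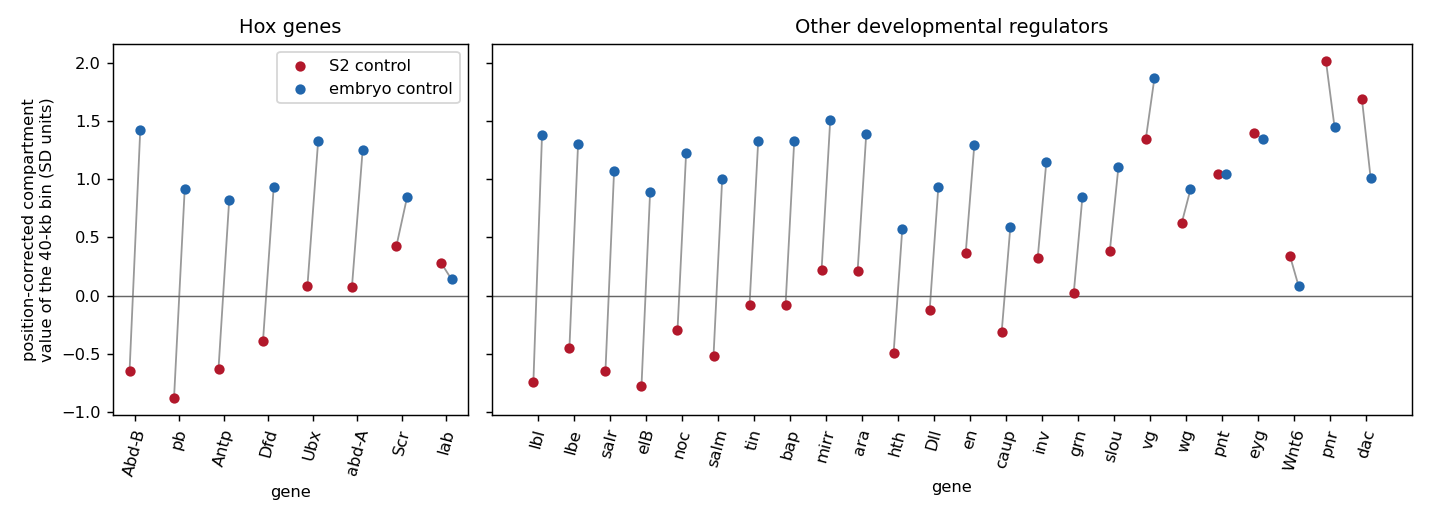
Position-corrected compartment value (SD units, A above 0) of the 40-kb bin of each gene in S2 control (left point) and embryo control (right point), joined by a line. Left, the 8 Hox genes, of which 7 are lower in S2 control. Right, the 24 other regulators, of which 20 are lower in S2 control.

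Genes that pattern the early embryo, and are transcribed around ZGA or supplied by the mother, differed by class. Of the 12 gap and maternal genes 6 were A in S2 cells and all 12 in embryos after correction, 6 were lower by 1 or more, and the median difference was -0.98. Before correction 5 were lower and the median was -0.92, or -0.18 in 80-kb bins. *ems* had -0.53 in S2 cells and 1.33 in embryos, and *bcd*, the anterior determinant, had -0.88 in S2 cells and 0.91 in embryos. *Kr*, a gap gene, had -0.43 in S2 cells and 1.09 in embryos, and *oc* (orthodenticle) had 0.13 in S2 cells and 1.74 in embryos. *hb* had 0.30 in S2 cells and 1.05 in embryos, and *nanos* was higher in S2 cells, with 1.42 in S2 cells and 0.94 in embryos. The pair-rule genes moved less. Of the 9 pair-rule genes 7 were A in S2 cells and 9 in embryos after correction, with a median difference of -0.46, and 1 was lower by 1 or more. By the first eigenvector 7 were A in S2 cells and 6 in embryos, and the median difference had the other sign, at 0.35. The member lower after correction was *ftz*, which lies in the Antennapedia complex beside *Scr*, with -0.26 in S2 cells and 1.03 in embryos. *prd* had 1.29 in S2 cells and 0.54 in embryos. Of 15 dorsoventral and cellularization genes 4 were lower by 1 or more after correction, and 9 were A in S2 cells and 13 in embryos. *zen*, a homeobox gene of dorsal cells, had -0.88 in S2 cells and 0.91 in embryos, in the same 40-kb bin as *bcd* and *pb*. *tsg* had -0.04 in S2 cells and 1.47 in embryos, and *twi*, which specifies mesoderm, was B in both maps after correction, at -0.94 in S2 cells and -0.32 in embryos.

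Hemocyte genes are active in fly blood cells, and their count depended on the vector. With either vector 11 of 16 were A in S2 cells and 8 in embryos. Of all 13674 genes 11475 were A in S2 cells and 9579 in embryos with the first eigenvector. After correction these were 11013 and 9364, so hemocyte genes were A less often than genes in general in both maps. With the first eigenvector 11 hemocyte genes were higher by 1 or more, beside 36.2% of all genes, and 1 was lower (*lz*). Their median difference was 1.19, set against 0.63 for all genes. After correction 5 were higher by 1 or more, beside 36.4% of all genes, and 0 lower. *eater*, a phagocytic receptor, had 1.44 in S2 cells and -0.65 in embryos. *srp*, the GATA factor of hemocyte fate, had 3.10 in S2 cells and 1.49 in embryos. *Pxn*, a peroxidase of the extracellular matrix, had 1.49 in S2 cells and -0.05 in embryos. *Hml* and *NimC1* stayed B in both maps, at -0.67 and -0.61 in S2 cells, against -0.24 and -0.81 in embryos. *lz*, a Runx factor of crystal cells, was the member with the largest lower value in S2 cells, with 0.81 in S2 cells and 1.59 in embryos. The median difference of the list after correction, 0.86, was near the 0.74 of all genes.

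Ribosomal protein genes were mostly A in both maps. So were genes in general, with 11013 of all 13674 A in S2 cells and 9364 in embryos after correction. With the first eigenvector these were 11475 and 9579. Of 87 cytoplasmic ribosomal protein genes placed, 84 were A in S2 cells and 70 in embryos after correction, and 42 were higher by 1 or more, beside 36.4% of all genes. By the first eigenvector 83 were A in S2 cells and 68 in embryos, and 33 were higher by 1 or more, close to the 36.2% of all genes. *RpS25* had 3.07 in S2 cells and -0.35 in embryos, and *RpL24* had 2.92 in S2 cells and 0.13 in embryos. *RpS4* was the only member lower by 1 or more after correction, with 0.14 in S2 cells and 1.33 in embryos. Its difference with the first eigenvector was -0.75, and 4 other members were lower by 1 or more, the lowest being *RpL37-1* at -1.44. Of 14 genes for heterochromatin and architectural proteins 7 were higher by 1 or more and 2 lower with the first eigenvector. After correction 8 were higher and 1 lower, beside 36.4 and 2.51% of all genes. *CTCF*, an insulator protein, had 3.29 in S2 cells and 0.30 in embryos, *Cp190*, its cofactor, had 2.94 in S2 cells and 1.01 in embryos, and the gene that encodes HP1 had 2.32 in S2 cells and 1.51 in embryos. *mod(mdg4)* was lower, with -0.08 in S2 cells and 1.32 in embryos, in the same 40-kb bin as *tin* and *bap* of the list of Polycomb-domain regulators. Of 111 replication-dependent histone genes 41 were placed, and these share 2 values. All 41 were A in embryos and B in S2 cells after correction, at -0.11 or -0.22 in S2 cells and 0.65 or 0.23 in embryos. With the first eigenvector 21 were A in S2 cells and 41 in embryos, at 0.009 or -0.23 in S2 cells. They lie in the segment chr2L:21250001-23500000 described with the copy ratio. Among 119 odorant and gustatory receptor genes 63 were A in S2 cells and 49 in embryos after correction, with a median difference of 0.59, and among 70 cuticle protein genes 58 and 57, with a median difference of 0.41. Of the genes chosen as landmarks of heterochromatin, 1 of 11 lay outside the pericentromeric regions. This was *Nipped-A*, with -0.66 in S2 cells and 0.14 in embryos after correction. With the first eigenvector it was B in both maps and the order was the other way, with -0.94 in S2 cells and -2.01 in embryos. It lies in the called copy segment chr2R:2050001-6550000.

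Boundaries were more numerous in S2 cells. They were taken as minima of the contact across a bin, within 100 kb to either side, with a prominence of 0.2 or more (log2). S2 cells had 909 and embryos 740, with a median spacing of 110 kb in S2 cells and 140 kb in embryos. The S2 maps had 909 to 950 and the embryo maps 560 to 740. Within 20 kb of an embryo boundary lay 562 S2 boundaries (61.8%), and within 20 kb of an S2 boundary lay 557 embryo boundaries (75.3%). Without a partner were 347 S2 boundaries (38.2%) and 183 embryo boundaries (24.7%). Sharing depended on which map was counted. An embryo boundary had more S2 boundaries to match than the reverse, and the share that would match by position alone was not computed. The counts without a partner have the same limit. Pairs of S2 maps shared 90.7 to 95.3% of their boundaries and pairs of embryo maps 70.3 to 95.5%. Between sources 48.7 to 61.8% of the boundaries of S2 maps and 74.7 to 83.4% of those of embryo maps had a partner, and the second range overlaps that between embryo maps.

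Boundary depth is the log2 contact at 100 kb to either side minus that at the boundary. At shared boundaries the mean depth was 0.94 in S2 cells and 0.75 in embryos, and 353 of 553 were deeper in S2 cells. At boundaries found in S2 cells alone it was 0.74 in S2 cells and 0.19 in embryos. At boundaries found in embryos alone it was 0.23 in S2 cells and 0.61 in embryos. The boundaries of each class were chosen on these maps, so the depths of the last 2 classes describe the choice. Shared boundaries were placed at the S2 minimum, and the embryo depth was read at that bin. The embryo minimum could lie up to 20 kb away, so this placement favours depth in S2 cells. The difference at shared boundaries was 0.18 with a tolerance of 10 kb, 0.20 at 20 kb and 0.25 at 40 kb. The embryo map thinned to the depth of the S2 map had a mean depth of 0.75 at shared boundaries. Most boundary bins held a gene start. The share was 85.1% for shared, 76.1% for S2-only and 79.8% for embryo-only boundaries, and 53.9% of all arm bins held one.

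The 5 deepest shared boundaries lay in bins with 1 to 5 genes. The bin of *spi*, which encodes a ligand of the EGF receptor, had a depth of 2.59 in S2 cells and 2.27 in embryos. The bin of *RpS25*, *Tctp* and *ZnT86D* had 2.78 in S2 cells and 2.01 in embryos, that of *CG4041* had 2.63 in S2 cells and 1.94 in embryos, that of *DIP1* had 2.48 in S2 cells and 2.03 in embryos, and that of *mud* and *mRNA-cap* had 2.08 in S2 cells and 2.35 in embryos. The largest depth differences towards S2 cells were at *Pdp1* (1.09 in S2 cells and -1.12 in embryos), at *Nup58* and *Vha13* (2.20 in S2 cells and 0.20 in embryos), at *CG5966* (0.95 in S2 cells and -1.05 in embryos), at *Sarm* (1.54 in S2 cells and -0.36 in embryos) and at *chm* and *muc* (1.68 in S2 cells and -0.18 in embryos). *Nup58* encodes a protein of the nuclear pore. The largest towards embryos were at a bin with no gene start, chrX:21790001-21800000 (-1.27 in S2 cells and 1.47 in embryos), at *Ca-alpha1T*, a calcium channel gene (-1.39 in S2 cells and 0.65 in embryos), at *hth*, a homeobox gene (-0.97 in S2 cells and 0.73 in embryos), at *Act5C* and *CG4020* (-0.10 in S2 cells and 1.52 in embryos) and at *ed*, a cell adhesion gene (-0.29 in S2 cells and 1.30 in embryos). The switching region around *Pdp1* and the first-eigenvector region around *chm* and *muc* thus held boundaries that were among those with the largest difference. Inside the region around *chm* and *muc* lies the bin chr2L:7450001-7500000, which is a side of 2 of the candidate junctions described with the distant pairs. Near the bins of *Act5C*, *CG5966* and *Ca-alpha1T* lies chrX:5800001-5850000, a side of another candidate junction. The bin with no gene start lies in the called copy segment chrX:21700001-22250000, and that of *ed* in chr2L:1650001-5050000. Whether copy or junction signs changed these depths was not tested.

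Promoters in the bins of these boundaries were placed by Ensembl gene annotation on dm6, from 250 bases before to 50 after the start of each gene. They were searched on both strands for 6 motifs known from fly promoters. The boundary protein BEAF-32 was searched by CGATA, the factor DREF by TATCGATA, which always holds the BEAF-32 letters, and the factor M1BP by GGTCACACT. GAGA factor, encoded by *Trl*, was searched by GAGAGAG. For Zelda, a pioneer factor of ZGA, the letters were CAGGTAG, and those of the TATA box were TATAAA. The 5 promoters shown here stand for boundaries that were deep in both maps (*spi*, *DIP1*), deeper in S2 cells (*Nup58*) and deeper in embryos (*CG4020*, *ed*), with matches in capitals on the strand of the gene. They lie at chr2L:19577266-19577565 (minus strand), chrX:21630099-21630398 (minus), chr3R:19644776-19645075 (plus), chrX:5905496-5905795 (plus) and chr2L:4031127-4031426 (plus).
spi: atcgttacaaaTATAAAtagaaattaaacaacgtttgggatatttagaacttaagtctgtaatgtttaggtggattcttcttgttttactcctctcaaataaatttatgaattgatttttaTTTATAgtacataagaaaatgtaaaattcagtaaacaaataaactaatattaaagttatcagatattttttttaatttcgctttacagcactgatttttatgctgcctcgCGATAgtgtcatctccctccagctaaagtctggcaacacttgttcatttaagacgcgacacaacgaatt
DIP1: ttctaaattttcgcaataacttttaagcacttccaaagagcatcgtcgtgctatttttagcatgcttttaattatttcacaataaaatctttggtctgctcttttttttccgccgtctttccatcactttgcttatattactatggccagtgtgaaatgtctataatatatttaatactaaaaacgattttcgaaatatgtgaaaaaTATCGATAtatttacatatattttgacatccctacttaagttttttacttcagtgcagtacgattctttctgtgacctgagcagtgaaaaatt
Nup58: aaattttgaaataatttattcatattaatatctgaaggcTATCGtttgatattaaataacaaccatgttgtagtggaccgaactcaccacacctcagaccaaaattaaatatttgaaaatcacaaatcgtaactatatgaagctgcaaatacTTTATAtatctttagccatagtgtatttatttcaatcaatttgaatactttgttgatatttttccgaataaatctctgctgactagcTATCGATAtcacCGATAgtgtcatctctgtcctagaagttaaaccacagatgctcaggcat
CG4020: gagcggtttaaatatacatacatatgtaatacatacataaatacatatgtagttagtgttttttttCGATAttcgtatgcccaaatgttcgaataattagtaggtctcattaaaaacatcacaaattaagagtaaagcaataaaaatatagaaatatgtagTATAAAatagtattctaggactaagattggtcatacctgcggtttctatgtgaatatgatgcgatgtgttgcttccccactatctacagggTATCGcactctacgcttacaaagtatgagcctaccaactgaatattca
ed: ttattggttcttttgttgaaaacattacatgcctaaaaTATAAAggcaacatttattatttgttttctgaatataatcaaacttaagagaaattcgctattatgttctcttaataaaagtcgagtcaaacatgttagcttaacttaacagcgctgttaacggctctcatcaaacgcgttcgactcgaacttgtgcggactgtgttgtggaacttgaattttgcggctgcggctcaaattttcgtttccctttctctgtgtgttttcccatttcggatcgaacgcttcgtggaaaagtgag

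The *DIP1* and *Nup58* promoters hold TATCGATA, and that of *Nup58* has 2 further CGATA matches outside it. The promoter of *ed* holds a TATA box match alone. CGATA stood in 56.2% of promoters at shared boundaries (95% Wilson interval 53.5 to 58.8), 53.1% at S2-only (49.4 to 56.7) and 59.8% at embryo-only boundaries (54.7 to 64.8), and in 47.3% of all 13865 promoters. TATCGATA stood in 14.6, 12.6 and 14.4% of the same classes and in 9.36% of all. The M1BP motif stood in 11.5, 8.01 and 9.42% and in 6.05% of all. The GAGA motif stood in 4.56, 4.15 and 6.37% and in 5.87% of all, the Zelda motif in 0.911, 1.72 and 2.49% and in 1.65% of all, and the TATA box in 47.4, 44.6 and 44.0% and in 45.8% of all. Intervals of the S2-only and embryo-only classes overlapped for each motif. Genes within a bin share a boundary, so promoters are not independent, and a match is a description of the sequence.

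Whole contacts also carried the signs of copy number that iterative correction removes. They were counted per bin with other bins, as log2 of S2 over embryo centred on the autosomal arms, in windows of 50 kb. Of 24 segments 11 were called (200 kb or longer with an absolute log2 ratio of 0.3 or more), 7 higher and 4 lower in S2 cells. They held 1010 of 2636 windows (38.3%). The median of the X was -0.46, and it was -0.48 and -0.44 in the other S2 maps. With contacts between chromosomes only it was -0.14. The median of bins on the X over that on autosomal arms was 0.526 in S2 cells and 0.721 in embryos. S2 is a male line, and the labels give no sex for the embryos. Set against embryo control, the other embryo maps had 0, 0 and 2 called segments.

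On the autosomal arms outside the pericentromeres the called segments were few. A segment of 3.4 Mb at chr2L:1650001-5050000, with *dpy*, *fred*, *ed*, *toc* and *lilli*, had a log2 ratio of -0.41, and its median was -0.41 in both other S2 maps. A segment of 3.5 Mb at chr2L:15700001-19200000, with the neural cadherin genes *CadN* and *CadN2*, had 0.44, with 0.41 and 0.44 in the other S2 maps. A segment of 5.7 Mb at chr3R:22400001-28100000 had -0.31, with -0.30 in both other S2 maps. The same places lay between -0.03 and 0.06 in the other embryo maps. On the X, chrX:200001-3100000 had -0.76 and chrX:3100001-19800000 had -0.41, with *kirre*, *Ten-a* and *dnc* among their longest genes. The pericentromeric segments were higher in S2 cells, up to 1.20 at chr2R:1-2050000 with *rl*, the fly MAP kinase gene, and *DIP-lambda*. The segment chr2L:21250001-23500000, with *Marf1* and *nolo*, had 0.96 and reached from the arm into the pericentromere. The pericentromeric median was 0.72, while it was 0.30 and 0.39 in the other S2 maps. Copy number, mappability and accessibility of repeats to the enzyme cannot be told apart in such a ratio. A further segment, chrX:21700001-22250000 with *CG40813*, rested on 22047 whole contacts in S2 cells and 155086 in embryos.

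**Figure D5:**
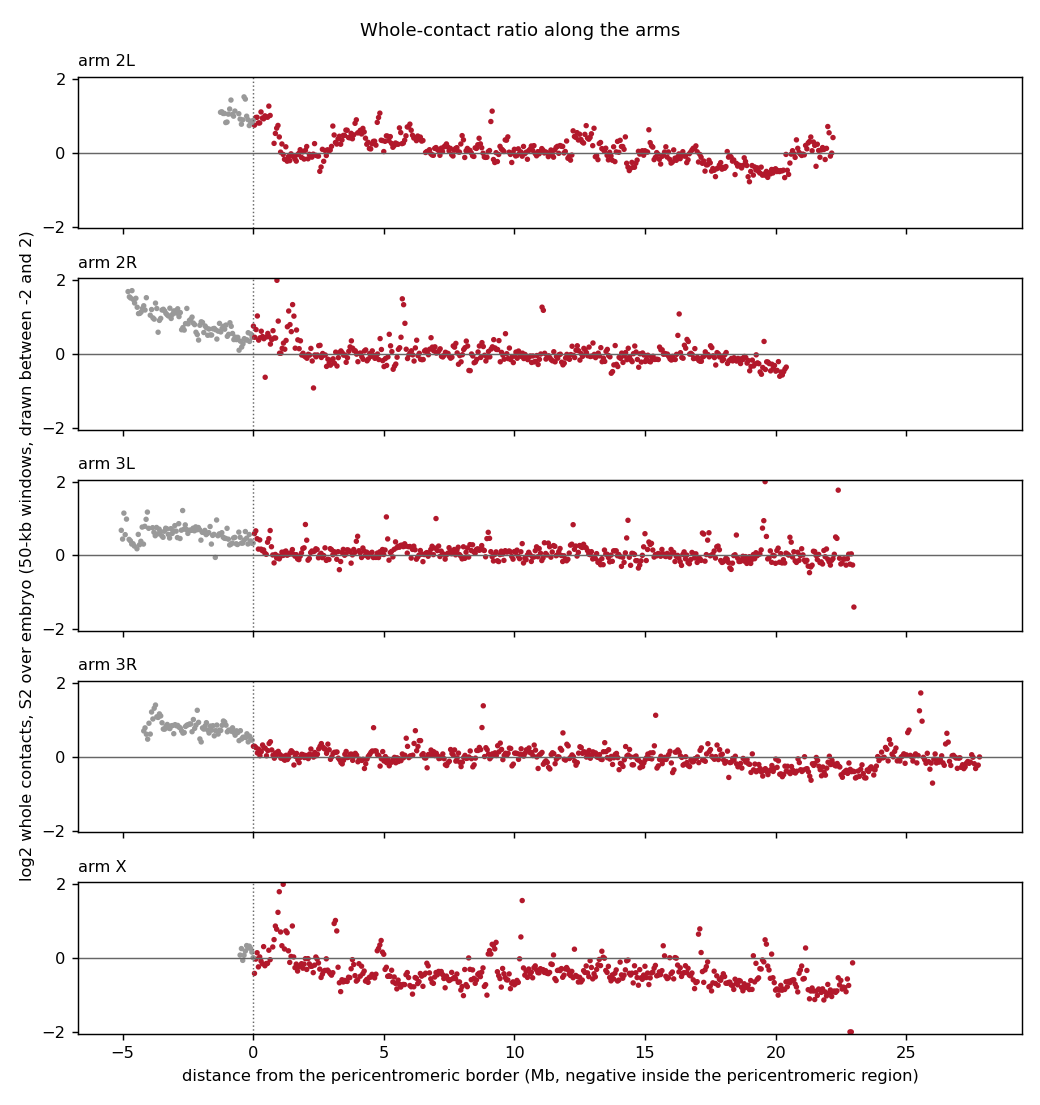
Log2 of whole contacts, S2 control over embryo control, in 50-kb windows against the distance from the pericentromeric border (Mb, negative and grey inside the pericentromeric region) on each arm. The X lies below 0 along most of its length and the pericentromeric windows above it, and 5 of the 2636 windows outside -2 to 2 are drawn at these limits.

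A few bins were almost empty in S2 cells. Of 11447 bins of 10 kb on the arms with 5000 or more contacts in embryos, 8 (0.0699%) held under 2% of the contacts expected in S2 cells from the embryo map, and 1 bin was found the other way. Between chrX:120001 and chrX:180000, 5 such bins with *RhoGAP1A* and *tyn* held 63 contacts in S2 cells and 133007 in embryos. The bin chrX:15070001-15080000, with *Lsd-2*, which encodes a protein of lipid droplets, held 0 contacts in S2 cells and 40477 in embryos. Bins at chr2R:5270001-5280000 (*d4*) and chr3L:40001-50000 held 27 and 7 contacts in S2 cells, against 24078 and 20032 in embryos. All 4 places were as poor in contacts in both other S2 maps, with 0 to 132 contacts.

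Some distant pairs of bins were in contact in S2 cells far above expectation. Of 3418311 pairs of 50-kb bins, 859 (0.0251%) had 10 or more contacts, a contact 10 times the expected or more, and 5 times that of embryos or more. They formed 14 clusters of 5 or more pairs, of which 4 were blocks and 10 were stripes with a single bin on one side. The block with the most pairs (78) joined chr2R:24900001-24950000 near *pain* with chr3R:28100001-28150000 near *CG34354*. Its highest pair had 163 contacts in S2 cells and 9 in the deeper embryo map, and an observed over expected contact of 161 in S2 cells and 1.04 in embryos. The other S2 maps had 138 and 165. The end of the 3R copy segment lay 25.0 kb from the centre of this bin on 3R. A second block joined chr2L:7450001-7500000 at *Ziz* with chr2L:21200001-21250000 at *CG8677*, with 83.7 in S2 cells and 1.62 in embryos, and the bin at *CG8677* also lay 25.0 kb from the edge of a copy segment. The other blocks joined *CG31705* and *CG17572* on 2L (33.1 in S2 cells and 1.42 in embryos) and *CG15765* and *Ten-a* on X (20.6 in S2 cells and 0.741 in embryos). The highest stripe values were 702 between *CG32945* on 3R and *CG1394* on X and 659 between *CG42324* on 3L and *raskol* on X, against 1.53 and 1.32 in embryos. Whether a stripe reflects a moved or repeated sequence was not tested.

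With the maps exchanged, 1512 pairs (0.0442%) were called in embryos over S2 cells, more than the other way, and formed 46 clusters. Of these 10 had both sides within the distal 1 Mb of arms, with 367 pairs, 3 had both sides near pericentromeric borders, with 77 pairs, and the 33 others, with 246 pairs, lay elsewhere. With the thinned embryo map 999 pairs were called in 24 clusters, of which 12 lay elsewhere. The number of clusters alone therefore does not separate the sources. The other S2 maps gave 16 and 18 clusters over embryo control, and the other embryo maps gave 6 to 9.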

How the data were processed

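The authors deposited 1 pooled, iteratively corrected map per group, in which the signal of each pair of 10-kb bins (dm6) is its contact and the values sum to 50000000. HiC-Pro 2.11.1 is named in the submitters' processing notes, and the aligner and read filters are not given in the sources used here. Which map was that of S2 control was read from its name. Correction factors were solved from the values and whole contacts recovered, with 100% of values under 20 contacts whole within 0.02. Pericentromeric regions were runs of 100-kb windows from the centromere end with 30% or more masked or unknown bases (500-kb running mean). Decay used 10 distance classes per decade from 20 kb to 20 Mb. Expected contact was the mean of the distance class of an arm or of a pair of arms. Copy segments were found by optimal partitioning, and junction pairs lay 2 Mb or more apart or on different arms and were joined within 200 kb. Intervals of shares (95%, Wilson) cover counting error only.

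No test was run, since each group was 1 map. The members and gene lists were chosen with earlier results of these data known. Genes were named as the list members with the largest rise and fall and the defining members, the genes nearest the centre of the longest switch regions, at the boundaries with the largest depths or depth differences, and in the copy segments and at the junctions with the largest values. Of the listed names concertina was not found. The scripts recovered what was simulated in 8 of 8 checks on simulated data. These checks did not include the position-corrected eigenvector or contact between pericentromeres. The boundary check scored planted boundaries that were found and did not score false calls. Scripts ran on Python 3.11.15 with pandas 2.3.3, scipy 1.17.1, numpy 2.4.6 and, for figures, matplotlib 3.10.9.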

Additional observations from a re-analysis of the deposited data

Results flagged for a closer look

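Sequence outside the 5 arms entered none of the comparisons above and held contacts in both maps. Chromosome 4 took 0.946% of contact ends in S2 cells and 1.03% in embryos, and the Y chromosome 0.0301% in S2 cells and 0.123% in embryos. The mitochondrial genome took 0.130% in S2 cells and 0.248% in embryos, and the remaining contigs 0.882% in S2 cells and 0.757% in embryos. There is 1 map per source, so none of these differences has a replicate error.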

How the results depend on the processing

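Of 247 values of 34 results under alternatives, 197 stayed within a spread or within 1.5 times a count, 46 moved and 4 changed direction. The spread was the SD over arms or pairs of arms, or the Wilson interval for shares of bins and boundaries. It was the SD over windows for the X median and over genes for gene lists. These are wide, so the X median at -0.14 (spread 0.55) and the gap and maternal gene median at -0.18 (spread 0.78) counted as having stayed. Differences are S2 minus embryo. No paired analysis was possible because each group was 1 pooled map. The 4 changes of direction were the share between chromosomes without contacts under 20 kb (0.896 percentage points), A/A with bins ranked by the other map (-0.0350), and A/B without arm 3R (-0.0042) and after position correction (-0.0057). Without iterative correction the share within a bin differed by 10.1 points, the exponent at 20 to 100 kb by 0.0472 and A/A by 0.814, bins of opposite sign were 4.23%, the log2 ratio between pericentromeres was -0.41, and 72.0% of S2 and 79.4% of embryo boundaries were shared. Uncorrected, the eigenvector called 99.7% of bins A in S2 cells and 96.0% in embryos. Without the 10% of bins with fewest contacts the share within a bin differed by 9.24 points and the exponent at 20 to 100 kb by 0.0464. With each map scaled to its contacts from 20 kb to 10 Mb the log2 ratio was -0.21 at 1 to 5 Mb and 1.45 at 10 to 20 Mb. Bins of opposite sign were 28.8% without 2L, 32.9% without 2R, 33.4% at 80 kb and 28.1% after position correction. Shared boundaries were 68.3% of S2 and 83.0% of embryo boundaries with a 50-kb diamond, 68.2 and 82.0% at a prominence of 0.1, 56.3 and 67.5% at 0.4, 52.8 and 64.9% within 10 kb and 76.9 and 87.6% within 40 kb. Their depth difference was 0.28 with the 50-kb diamond, 0.23 at a prominence of 0.4 and 0.25 within 40 kb. Alignment in S2 cells was 1.27 for arms of 1 chromosome. Called copy segments were 17 with a smaller penalty and 7 at a threshold of 0.5, and the pericentromeric median was 0.30 and 0.39 in the other S2 maps. Candidate junctions were 23 and 7 at 5 and 20 times the expected, 2 in 100-kb bins and 4 without stripes. Genes higher in S2 cells were 7508 and 3114 at differences of 0.5 and 1.5, and genes lower 2466 and 588, or 343 after position correction at 1. Hox genes lower by 1.5 were 3. Polycomb regulators lower were 12 and 2 at 0.5 and 1.5, and 12 after position correction at 1. Causes of these changes were not tested. Thinning the embryo map to the depth of the S2 map, with the correction factors of the full map kept, moved none of these 26 results it was run on. However, it raised the embryo A runs to 196, and 297 after position correction, and lowered the embryo over S2 clusters to 24. The values between the pericentromeres of the X and other arms rest on the fewest contacts.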
